A study of Arabidopsis thaliana with 16 samples.

Results

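The genes described here are 5 *Arabidopsis thaliana* genes of auxin conjugation and auxin response, each represented by 1 probe set among the 22746 tested. *GH3.3* (AT2G23170), *WES1* (AT4G27260, also *GH3.5*) and *IAGLU* (AT4G15550) were chosen for their role in attaching auxin to amino acids or glucose, and *HAT2* (AT5G47370) and *IAA29* (AT4G32280) as auxin response genes. The choice was made with earlier results of these data known, so counts of calls among the 5 are no independent evidence of an excess over all probe sets. Their levels were read on 16 ATH1 arrays of Col-0 plants 4 weeks old, with 1 array per sample and at least 8 plants in each sample. In the volatile experiment, receiver plants stood in a glass jar with air from Lima bean plants, which were healthy for the controls and carried leafminer larvae for the volatile treatment. Control and volatile arrays numbered 2 each at 24 h and 3 each at 48 h. In the feeding experiment, 3 samples of leaves mined by leafminer larvae were compared with 3 samples of healthy plants that had not been in the jar. The mined leaves were taken at a set larval stage, longer after egg laying than either volatile exposure lasted. All plants were of the same ecotype, and the sample titles speak of seedlings where the tissue field speaks of leaves. The methods call the replicates independent and the fed samples separate, without saying whether the plants of different samples were grown or exposed apart; the p-values rest on the spread among these arrays, whose small number limits the precision.

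Auxin (indole-3-acetic acid) is a growth hormone whose free pool in a leaf is set by synthesis, transport, oxidation and conjugation. GH3 enzymes join it to amino acids and are themselves induced by auxin, while glucosyltransferases form the glucose ester. Responses run through auxin receptors that mark Aux/IAA repressors for degradation, which frees auxin response factors to act on target genes. *GH3.3* and *WES1* encode GH3 amido synthetases, and the product of *WES1* also acts on salicylate. *IAGLU* is annotated as an indole-3-acetate glucosyltransferase. *HAT2* encodes an auxin-induced homeodomain-leucine zipper repressor, and *IAA29* an Aux/IAA protein that is known from shade responses.

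The values are deposited MAS5 signals on a linear scale. Array medians ranged from 19.2 to 30.3, and log2 values were compared without further scaling, after values below 1 had been set to 1. Whole arrays were shifted too: the log2 change had a median over all probe sets of 0.31 with volatiles at 24 h, of 0.07 with volatiles at 48 h, of 0.14 with feeding and of -0.11 between the 48 h controls and healthy plants. Called means here a change of 2-fold or more whose limma p, adjusted by Benjamini and Hochberg over all 22746 probe sets, does not exceed 0.05. The leaf genes *LHCB4.1* and *RCA*, of the light-harvesting antenna and of Rubisco activation, summed to signals between 4962 and 8837 on the arrays. Of the root markers, *EXPA7*, a root hair gene, was at most 7.97 on every array, whereas *PYK10*, a beta-glucosidase gene known from roots, gave between 71.7 and 115.8 on the healthy arrays and at least 513 on the other 13. The methods name leaves for the feeding experiment, and for the volatile experiment say only that the receiver plants were frozen, so the harvested part may differ. In samples of mixed cells, fewer cells of a type and less RNA per cell cannot be told apart.

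Leafminer feeding went with higher *GH3.3* and *WES1* and with lower *IAGLU* and *HAT2*, while the change of *IAA29* did not pass the test. The conjugating genes therefore did not move in 1 direction: both amido synthetase genes rose and the glucosyltransferase gene fell. Of the 5 genes, 2 were called up and 2 down, beside 12.8% of all probe sets called up and 6.49% called down. After quantile normalization of the arrays, 2227 of all probe sets were called up and 2378 down, in place of 2902 and 1476, and the 4 genes kept their calls.

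*GH3.3* gave signals of 3.25, 1.11 and 12.4 on the healthy arrays and of 114.0, 100.7 and 117.2 on the fed arrays. The fed arrays lay close together and far above the healthy ones, 1 of which was near the value of 1 at which signals were cut off. On the log2 scale the mean was 1.83 ± 1.74 (SD, n = 3) in healthy and 6.79 ± 0.12 (SD, n = 3) in fed leaves, a log2 fold change of 4.96 (SE 0.64, limma adjusted p = 9.55e-05). The size of this change rests on how the low healthy signals are treated, since it was 2.59 on the log2(value + 16) scale, 4.12 without healthy replicate 2 and 5.86 without healthy replicate 3; the call held each time.

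*WES1* was at 32.7, 21.3 and 40.8 in healthy leaves and at 298.2, 143.7 and 108.1 in fed leaves. All fed arrays exceeded all healthy arrays, with fed replicate 1 the highest by a wide margin. The log2 fold change was 2.45 (SE 0.53, limma adjusted p = 0.0037), a 5.46-fold rise, with a 95% interval from 1.29 to 3.61.

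*IAGLU* moved the other way, from 244.1, 207.3 and 281.2 in healthy leaves to 53.6, 71.4 and 63.7 in fed leaves. The groups were far apart relative to their spread (7.92 ± 0.22 and 5.96 ± 0.21 on the log2 scale, SD, n = 3 each). The log2 fold change was -1.96 (SE 0.33, limma adjusted p = 0.00067), a 3.88-fold lower level in fed leaves.

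*HAT2* was even within each group, at 118.9, 117.6 and 127.1 in healthy leaves and at 46.8, 51.0 and 58.4 in fed leaves. Its log2 fold change was -1.22 (SE 0.16, limma adjusted p = 8.44e-05), a 2.34-fold lower level in fed leaves.

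*IAA29* was dim in this experiment, at 15.5, 10.5 and 12.8 in healthy leaves and at 7.27, 28.3 and 31.4 in fed leaves. Fed replicate 1 lay below every healthy array and the other fed arrays above them, so the groups overlapped. The log2 difference of 0.54 (SE 0.46, limma adjusted p = 0.44) did not pass the test. Without fed replicate 1 it was 1.22 with an adjusted p of 0.0096, which is past the threshold.

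The 4 changed genes also had array ranges that did not overlap between healthy and fed leaves, *GH3.3* and *WES1* higher and *IAGLU* and *HAT2* lower, where 27.6% of all probe sets were higher and 15.6% lower without overlap. Of the root markers, *PYK10* rose from between 71.7 and 115.8 in healthy leaves to between 513 and 1054 in fed leaves. *EXPA7* stayed low, at 0.75 to 2.40 and 0.99 to 7.97. *SWEET11*, a phloem sucrose transporter gene, moved as well, from between 784 and 1051 in healthy leaves to between 538 and 646 in fed leaves. The summed leaf markers overlapped, at 7357 to 8058 in healthy and 7128 to 8837 in fed leaves. So did *FMA*, a guard cell gene, at 32.6 to 46.2 and 32.7 to 36.6. The part of these markers in the result was not tested.

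**Figure D1:**
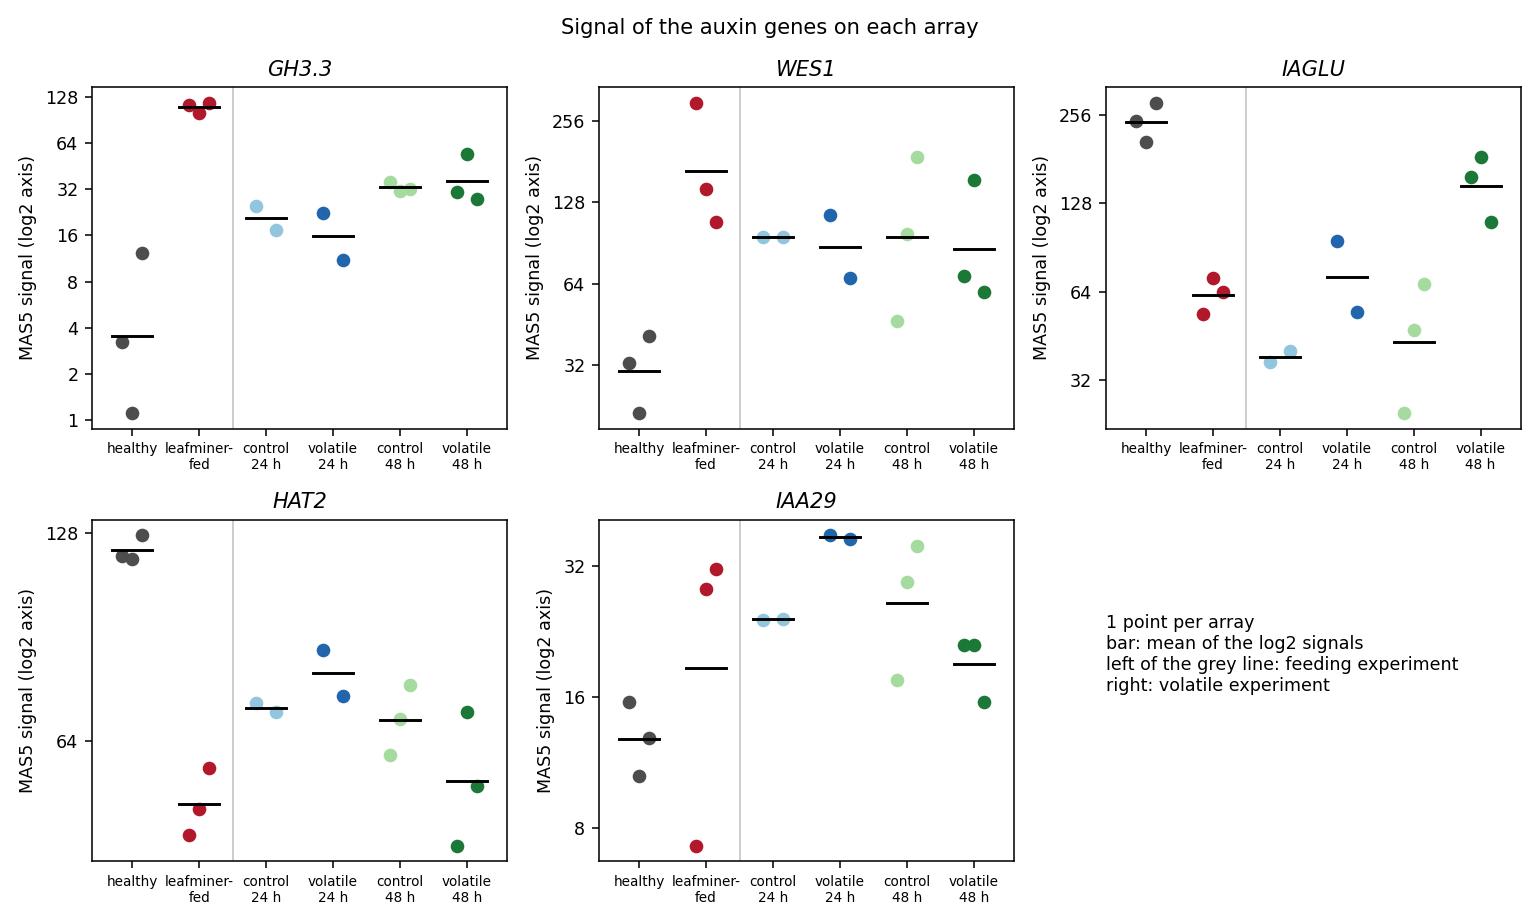
MAS5 signal of each auxin gene on each of the 16 arrays, by group, on a log axis; points are arrays and bars group means of log2 values. The fed arrays of *GH3.3* lie between 100.7 and 117.2, above every other array, whereas the healthy arrays of *IAGLU* and *HAT2* lie above every other array.

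Exposure to volatiles of leafminer-damaged beans for 48 h went with higher *IAGLU*, the glucosyltransferase gene, and the other 4 genes did not pass the test. That is 1 of 5 called up, beside 0.558% of all probe sets called up, and 0 of 5 called down, beside 0.207%. After quantile normalization, 184 of all probe sets were called up and 130 down, in place of 127 and 47.

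*IAGLU* was at 24.7, 47.4 and 68.2 on the 48 h control arrays and at 156.7, 183.3 and 110.3 on the 48 h volatile arrays. Every volatile array exceeded every control array, as for 9.42% of all probe sets, and the control arrays were the more scattered (5.43 ± 0.74 against 7.20 ± 0.38 on the log2 scale, SD, n = 3 each). The log2 fold change was 1.77 (SE 0.33, limma adjusted p = 0.029), a 3.41-fold rise with a 95% interval from 1.05 to 2.49. The direction did not depend on any array, but the call did: the adjusted p was 0.077 without control replicate 2, 0.11 without volatile replicate 1, 0.089 without volatile replicate 2 and 0.36 in a fit on the arrays of this comparison alone, with values between 1.37 and 2.1 when 1 array was left out. After quantile normalization it was called at 1.71 with an adjusted p of 0.0090.

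The amido synthetase genes showed overlapping values after 48 h. *GH3.3* gave 35.4, 31.3 and 32.3 on the control arrays and 30.9, 54.5 and 27.8 on the volatile arrays. Its log2 difference was 0.13 with a 95% interval from -1.27 to 1.53. *WES1* was widely spread in both groups, at 46.5, 97.8 and 188.2 in controls and 68.1, 155.0 and 59.6 with volatiles. Its difference of -0.15 had an interval from -1.30 to 1.01, and its sign turned with the array left out (-0.66 to 0.35). Changes of 2-fold in either direction lie inside both intervals.

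*HAT2* was at 61.1, 68.8 and 77.2 on the 48 h control arrays and at 45.1, 70.5 and 55.1 on the volatile arrays. Volatile replicates 1 and 3 were below every control array, and the difference was -0.30 (SE 0.16, limma adjusted p = 0.46), with an interval from -0.64 to 0.04 that leaves out a 2-fold change. *IAA29* gave 17.4, 29.3 and 35.5 in controls and 21.0, 21.0 and 15.6 with volatiles, a difference of -0.47 (SE 0.46, limma adjusted p = 0.75) with overlapping arrays.

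After 24 h of volatiles limma called 0 of the 5 genes, beside 0.0176% of all probe sets called in either direction (4 probe sets). At an unadjusted p under 0.05 there was 1 of 5, *IAGLU*, beside 12.6% of all probe sets. It was at 36.8 and 40.2 on the control arrays and at 95 and 54.5 on the volatile arrays, a log2 difference of 0.90 (SE 0.40, limma adjusted p = 0.39, 95% interval from 0.02 to 1.78). *IAA29* was at 24.0 and 24.2 in controls and at 37.5 and 36.9 with volatiles, a difference of 0.63 (SE 0.57, limma adjusted p = 0.61). Both differences include the shift of the whole arrays, a median of 0.31 over all probe sets. Less that median they were 0.60 for *IAGLU* and 0.32 for *IAA29*, and the interval of *IAGLU* makes no allowance for it. Both volatile arrays of each gene were above both controls, and so were those of *HAT2*, at 86.6 and 74.5 against 72.7 and 70.4. Such a separation upward was seen for 48.8% of all probe sets at 24 h, and the difference of *HAT2*, 0.17, turned to -0.19 after quantile normalization and to -0.15 after median centring. *GH3.3* gave 24.7 and 17.3 in controls and 22.4 and 11.1 with volatiles, and *WES1* 95.3 and 95 against 114.6 and 67.0, with differences of -0.39 and -0.12 whose signs turned when volatile replicate 2 was left out.

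The difference between the 48 h and the 24 h response was called by limma for 0 of the 5 genes, beside 0.022% of all probe sets, and 0 had an unadjusted p under 0.05. For *IAGLU* it was 0.87 (SE 0.52, limma adjusted p = 0.68, 95% interval from -0.27 to 2.00), so that a larger response at 48 h was not shown. For *IAA29* it was -1.10 (SE 0.73, adjusted p = 0.70) and for *HAT2* -0.46 (SE 0.25, adjusted p = 0.66). For *GH3.3* and *WES1* it was 0.52 and -0.029, the latter turning to 0.23 after quantile normalization and 0.18 after median centring.

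**Figure D2:**
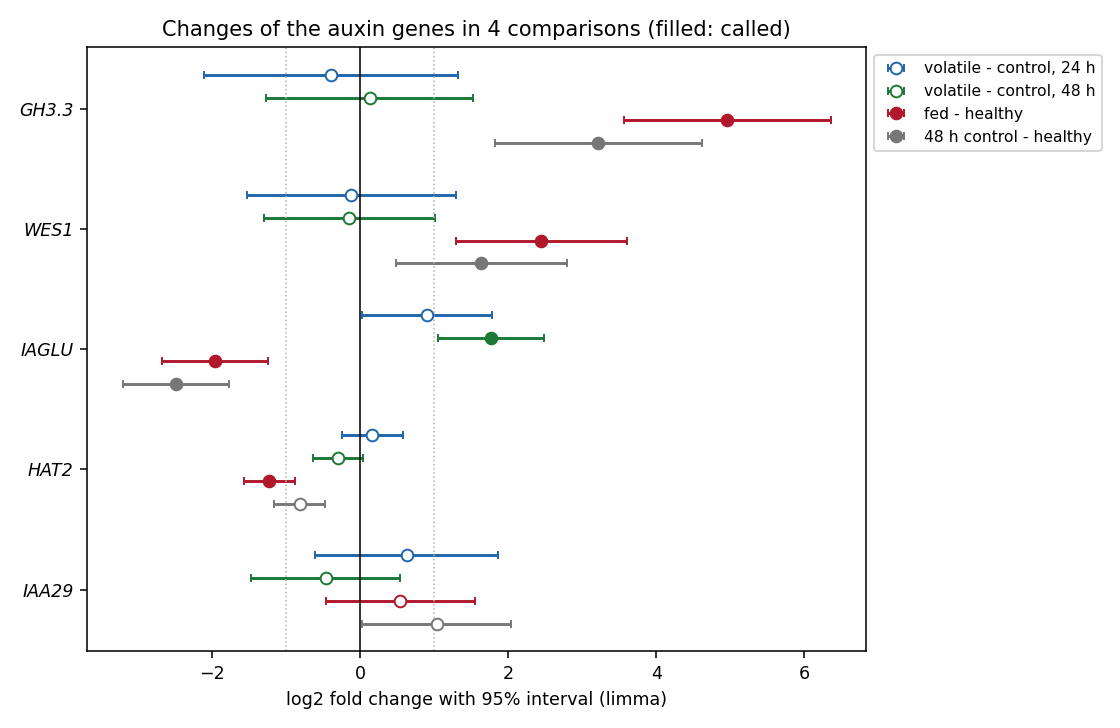
Log2 fold changes of the 5 auxin genes in 4 comparisons, with 95% intervals from the limma fit; filled points are called and dotted lines mark 2-fold changes. *IAGLU* lies at 1.77 after 48 h of volatiles and at -1.96 with feeding, and the intervals of *GH3.3* and *WES1* cross 0 at both times of the volatile treatment.

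The feeding response and the 48 h volatile response were set against each other, each relative to its own controls. *IAGLU* rose with volatiles and fell with feeding, and the difference of the responses was -3.73 (SE 0.47, limma adjusted p = 0.00023). Across the array, 16 probe sets (0.0703%) were called up at 48 h of volatiles and down with feeding, *IAGLU* being 1 of them, and 56 (0.246%) were called up in both. *GH3.3* responded more to feeding by 4.83 (SE 0.91, limma adjusted p = 0.0034). This value was 2.49 on the log2(value + 16) scale, 4.00 without healthy replicate 2 and 5.73 without healthy replicate 3, and was called each time. *WES1* responded more to feeding by 2.60 (SE 0.75, limma adjusted p = 0.034). *HAT2* differed by -0.93 (SE 0.22, limma adjusted p = 0.013), under the 2-fold limit, and passed it at -1.09 after quantile normalization and -1.07 after median centring. *IAA29* differed by 1.01 (SE 0.65, limma adjusted p = 0.35), and by 1.69 with an adjusted p of 0.015 without fed replicate 1.

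In all, 2 of 5 genes were called up and 1 down in this comparison, beside 8.8% and 5.24% of all probe sets. The call of *WES1* was narrow: its adjusted p was 0.064 in a fit on the arrays involved alone, and it was over 0.05 in 8 of the 12 fits that left out 1 array, where the difference lay between 2.1 and 3.11. These were the fits without control replicate 2 or 3 or volatile replicate 1 or 3 of the 48 h groups, healthy replicate 1 or 2, and fed replicate 1 or 2. The 2 experiments share no arrays, and the volatile jar, the time of sampling and the treatment cannot be told apart in the difference of the responses.

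The controls of the 2 experiments differed in several of these genes. On the 48 h control arrays *GH3.3* was higher than in healthy plants by 3.22 (SE 0.64, limma adjusted p = 0.0031) and *WES1* by 1.64 (SE 0.53, limma adjusted p = 0.038), and *IAGLU* was lower, with a difference of -2.49 (SE 0.33, limma adjusted p = 0.00021). *HAT2* was lower as well, with a difference of -0.82 (SE 0.16, limma adjusted p = 0.0024) that is under 2-fold, and *IAA29* differed by 1.04 (SE 0.46, limma adjusted p = 0.12). That makes 2 of 5 called up and 1 down, beside 7.07% and 9.72% of all probe sets. The feeding comparison uses the same healthy arrays, so the pair of comparisons is not independent.

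All 5 genes had non-overlapping arrays between 48 h controls and healthy plants, 3 higher and 2 lower, as had 15.4% and 23.2% of all probe sets. The difference of *GH3.3* was 1.22 on the log2(value + 16) scale, 2.38 without healthy replicate 2 and 4.12 without healthy replicate 3, and its call was lost in a fit on these arrays alone (adjusted p = 0.073). That of *WES1* was lost there (adjusted p = 0.12) and in 5 of the 6 fits without 1 array (control replicate 2 or 3 or any healthy replicate), where the difference lay between 1.14 and 2.15. Jar, experiment and group cannot be told apart here. *PYK10* was between 697 and 1491 on the jar arrays and at most 115.8 in healthy plants. The summed leaf markers were between 4962 and 6309 on the jar arrays and between 7357 and 8058 in healthy plants. This gap was that of *RCA*, at 2301 to 3211 on the jar arrays and 4468.5 to 4800 in healthy plants. *LHCB4.1* overlapped, at 2620 to 3099 and 2888 to 3281. The part of these markers in the result was not tested.

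Between the controls of the volatile experiment at 48 h and 24 h, 0 of 5 genes were called by limma beside 0.0132% of all probe sets, and 0 at an unadjusted p under 0.05. The largest difference was that of *GH3.3*, 0.67 (SE 0.72, limma adjusted p = 0.88), with both 24 h arrays below the 3 arrays at 48 h, as for 18.9% of all probe sets. The other 4 differences lay between -0.059 and 0.16. The 95% intervals of *GH3.3* (-0.89 to 2.24), *WES1* (-1.29 to 1.29) and *IAA29* (-0.998 to 1.25) hold changes of over 2-fold.

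Ordered over the 6 groups, *GH3.3* was lowest in healthy leaves, followed by the 24 h volatile and 24 h control groups, of which the first overlapped both of its neighbours. The 48 h control and 48 h volatile groups came next and overlapped each other, and the fed group was highest, apart from all jar arrays (11.1 to 54.5). *WES1* was also lowest in healthy leaves, apart from the rest. The 4 jar groups overlapped, with a median of 95.2 over 10 arrays, and the fed group stood highest, although its lowest array (108.1) was below 3 of the jar arrays, which reached 188.2.

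*IAGLU* had another order. The 24 h control, 48 h control, fed and 24 h volatile groups were the lowest 4, each overlapping its neighbour, and the 48 h volatile group stood above them and below the healthy group. The rise with volatiles thus ran from a level in the jar controls that was under that of healthy plants, and the 48 h volatile arrays did not reach the healthy ones (110.3 to 183.3 against 207.3 to 281.2). *HAT2* was lowest in fed leaves, with the 48 h volatile, 48 h control and 24 h control groups overlapping in turn, then 24 h volatile, and highest in healthy leaves. *IAA29* had low signals, from 7.27 to 37.5. The healthy, fed and 48 h volatile groups were lowest, each overlapping its neighbour, and the 24 h volatile group was highest.

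Of 313 names on lists of auxin genes, 23 could be matched to a named probe set beyond the 5 genes; no matched probe set came from the receptor, auxin response factor or SAUR lists. Names were matched by symbol or synonym alone, so a matched gene need not have the role of its list. The 23 are called other auxin genes here on that basis only. Of them, 6 were among the upper 60% of probe sets by signal, so counts beside all probe sets compare genes of unlike signal. With feeding 4 of the 23 were called up and 3 down, beside 12.8% and 6.49% of all probe sets, and their median change was -0.18 where that of all probe sets was 0.14. Among the conjugation genes, *UGT74D1*, a further glucosyltransferase that acts on auxins, fell from between 228 and 238 in healthy leaves to between 47.6 and 72.1 in fed leaves. Its log2 fold change was -1.93 (SE 0.20, limma adjusted p = 1.92e-05). The jar arrays of *UGT74D1* lay between 44.6 and 129, all below the healthy arrays, as were those of *IAGLU* and *HAT2*. For the 48 h controls alone, 23.2% of all probe sets were lower than in healthy plants without overlap. The share for all jar arrays was not computed.

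Of the response genes, *IAA18*, an Aux/IAA repressor gene, rose from between 114 and 156 in healthy leaves to between 327 and 530 in fed leaves, by 1.55 (SE 0.22, limma adjusted p = 0.0002). *BIM1*, a transcription factor gene of brassinosteroid signalling on the list of homeodomain-leucine zipper and shade genes, rose from between 62.6 and 90.8 to between 164 and 223, by 1.31 (SE 0.19, limma adjusted p = 0.00018). The other 4 calls were of dim probe sets whose signals stayed at or below 16.0 on every healthy and fed array. *UGT84B1*, an auxin glucosyltransferase gene, was called at 1.94 and *LBD29*, a lateral root regulator gene, at 1.67, and *IAA20*, an Aux/IAA gene, at -1.78 and *YUC6*, a gene of auxin synthesis, at -2.44. None of these 4 calls was made on the log2(value + 16) scale.

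With volatiles limma called 0 of the 23 at 24 h and 0 at 48 h, beside 0.0176% of all probe sets called at 24 h and 0.558% called up and 0.207% down at 48 h. At an unadjusted p under 0.05 there were 0 and 3 of the 23, beside 12.6% and 13.2% of all probe sets. The median changes were 0.22 and -0.03 where those of all probe sets were 0.31 and 0.07. Most of the 23 were dim, so the lack of calls does not show that they were unchanged. At 48 h *ARL*, a gene of cell expansion, gave between 90.4 and 326 in controls and between 315 and 448 with volatiles, a difference of 1.05 that did not pass (limma adjusted p = 0.25). *WAG2*, a kinase gene of auxin transport, had a difference of 1.14 (limma adjusted p = 0.25) and *UGT74D1* one of 0.45 (limma adjusted p = 0.38). Against the 48 h volatile response, the feeding response was called higher for *IAA18* (1.47) and *BIM1* (1.62) and lower for *UGT74D1* (-2.38, SE 0.29, limma adjusted p = 0.00019), so that 2 of 23 were called up and 1 down, beside 8.8% and 5.24% of all probe sets.

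Between 48 h controls and healthy plants, *ARL* (2.56), *WAG2* (1.30) and *GH3.17* (2.64), the last a gene of an enzyme that joins auxin to glutamate, were called up, and *UGT74D1* (-1.78) and *IAA20* (-1.86) down, which makes 3 of 23 up and 2 down beside 7.07% and 9.72% of all probe sets. *WAG2* was dim, at 10.3 to 12.3 in these controls and 2.64 to 8.95 in healthy plants, as were *GH3.17*, at 11.3 to 29.7 and 1.5 to 7.5, and *IAA20*. The calls of *ARL* and *UGT74D1* were also made on the log2(value + 16) scale and in a fit on these arrays alone, and those of the other 3 genes in neither. One further probe set, which the study labels an auxin-induced protein in its list of transcripts measured by PCR, has no gene name in the annotation used. It was chosen by the study on these samples and is therefore no independent evidence. Its signals were 164.5, 132.2 and 119.0 in healthy leaves and 13.4, 17.7 and 26.3 in fed leaves, a log2 fold change of -2.90 (SE 0.29, limma adjusted p = 1.24e-05). After 48 h it gave 76.5, 75.5 and 61.2 in controls and 40.7, 56.1 and 37.4 with volatiles, a difference of -0.68 (SE 0.29, limma adjusted p = 0.34).

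**Figure D3:**
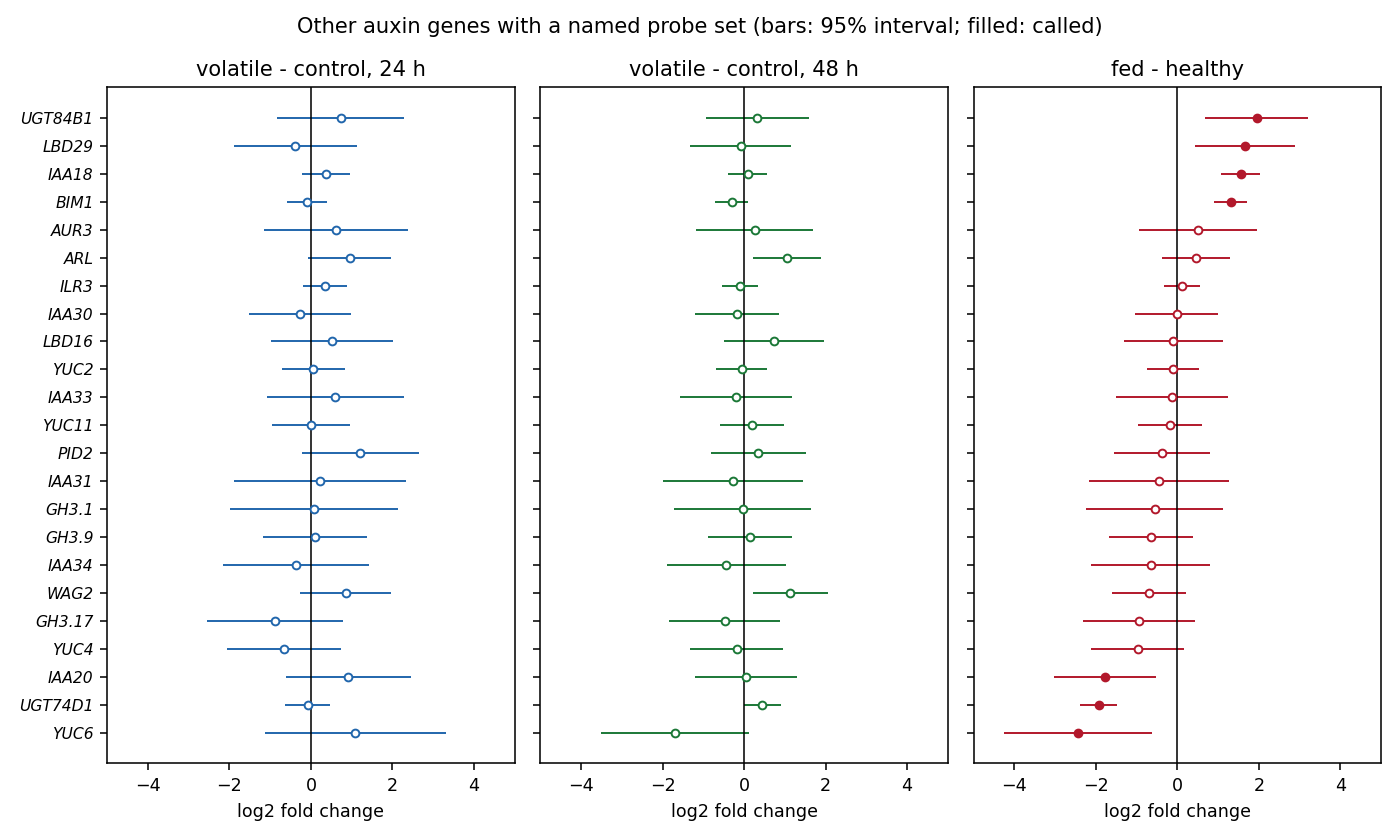
Log2 fold changes of the 23 other auxin genes with a named probe set, at 24 h and 48 h of volatiles and with feeding; bars are 95% intervals and filled points are called. All 7 calls are in the feeding panel, with *IAA18* and *BIM1* among the 4 up and *UGT74D1* among the 3 down.

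Patterns over the 16 arrays were compared by Pearson's r of log2 values among 5939 probe sets of 1 gene at or above the median signal, as a description: the arrays share groups and total signal. Among the 5 genes themselves, *GH3.3* and *WES1* were most alike (r = 0.82), and *GH3.3* and *HAT2* most opposed (r = -0.79). Within groups, as deviations from the group means, these were 0.44 and 0.37, so the opposition of *GH3.3* and *HAT2* lay between groups. *WES1* and *IAGLU* had an r of -0.42 over all arrays and of 0.72 within groups.

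The probe sets most like *GH3.3* were those of AT1G26380 (r = 0.93), AT1G33590 (0.91), AT1G64890 (0.91) and AT1G61360 (0.91), all lowest in healthy and highest in fed leaves like *GH3.3* itself. For *WES1* they were AT4G33150 (0.97), a gene of lysine breakdown, AT5G25770 (0.91), AT1G10140 (0.90) and AT1G25400 (0.90). For *IAGLU* they were *SWEET1* (0.90), a sugar transporter gene, AT1G20380 (0.89), AT2G20950 (0.89) and AT2G01680 (0.88). For *HAT2* they were *GME* (0.93), a gene of ascorbate and cell wall sugar synthesis, AT1G15180 (0.93), AT2G33250 (0.93) and AT1G12500 (0.92). *IAA29* had the weakest likeness, with AT3G11450 (0.85), AT2G36320 (0.81), *TRXF2* (0.81), a chloroplast thioredoxin gene, and AT3G15160 (0.80).

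**Figure D4:**
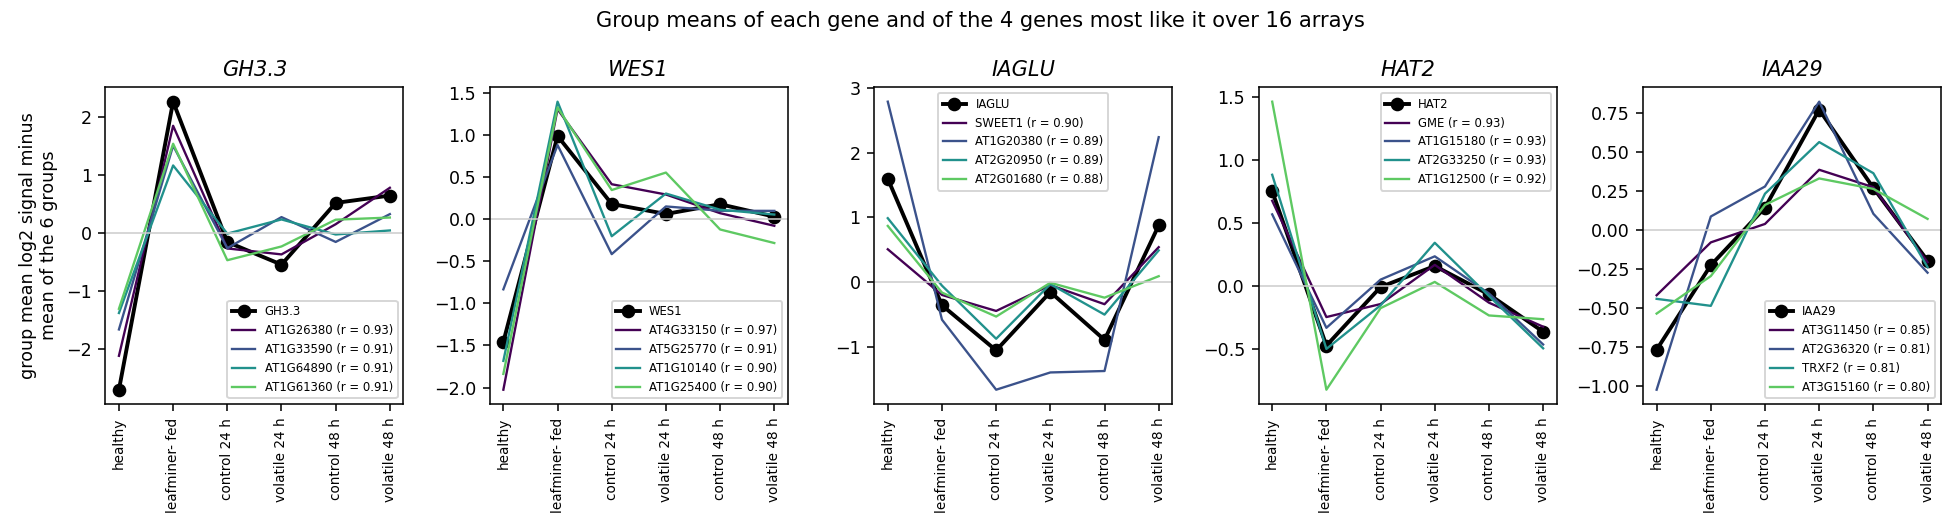
Mean log2 signal by group of each auxin gene and of the 4 probe sets with the highest Pearson r over the 16 arrays, each line centred on its own mean of the 6 groups. The lines of *GH3.3* are lowest in healthy and highest in fed leaves, those of *HAT2* are highest in healthy leaves, and so are those of *IAGLU* other than *SWEET1*, which is highest after 48 h of volatiles.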

How the data were processed

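Total RNA was isolated, and labelled material made from it was hybridised to Affymetrix ATH1 arrays, 1 per sample. The deposited intensity values are signals on a linear scale that the authors computed with MAS5; the scaling target, and whether the GeneSpring normalization of the methods was applied, are not given in the sources used here, and no detection calls were used. Values below 1 were set to 1 and log2 was taken without further scaling, since the methods' scaling was taken as done; array medians still differed, so quantile normalization was tried. On each array 9.62% to 13.3% of signals did not exceed 1. Within groups, arrays correlated at 0.953 to 0.974, and no arrays were identical.

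limma 3.58.1 (R 4.3.3) estimated 6 group means with a variance trend; 64 control probe sets of 22810 were left out. The methods used SAM, whose thresholds (adjusted p of at most 0.05, 2-fold) were kept with limma, because its pooled spread allows tests with 2 arrays a group. The fit was tested on simulated data. All adjusted p-values come from limma. Gene names came from the platform annotation (13513 probe sets with 1 gene, 503 with several, 8730 unnamed here), of which 13436 matched the RefSeq table of TAIR10.1, used for names only. Plots used matplotlib 3.10.9 in Python 3.11.15.

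The 5 genes and the lists were chosen with earlier results of these data known. Named are the 5 genes, an unnamed probe set from the study's PCR list (auxin-induced protein), up to 6 other auxin genes called in a comparison, and the 4 most alike probe sets per gene. A further rule, which names *BIM1*, took the 2 largest changes per list in each of the 3 treatment comparisons. It was limited to genes reaching the median signal (log2 4.61). Uncalled changes meeting this rule were not all given in the Results. Among those left out were *ILR3*, of the conjugate hydrolysis list (0.34 at 24 h, -0.10 at 48 h, 0.11 with feeding), and *YUC2*, of the synthesis list (-0.11 with feeding). *ARL* at 24 h (0.95) and with feeding (0.46) was left out as well. Of the marker lists, 2 of 15 leaf mesophyll, 1 of 5 guard cell, 1 of 6 phloem, 2 of 8 root, 0 of 7 flower and 0 of 6 trichome and epidermis genes matched; the guard cell and phloem markers summed to 20.0 to 46.2 and 538 to 1051. Alternatives were quantile normalization, median centring, log2(value + 16), the upper 60% by signal, fits on a comparison's own arrays, the replicate number as a block, no variance trend, folds of 1.5 and none, and leaving out each array. Promoter and protein sequences were not analysed here.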

Additional observations from a re-analysis of the deposited data

Results flagged for a closer look

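The feeding response and the 48 h volatile response of 4 auxin genes differed by the test of the difference itself, each response taken against its own controls. The difference, feeding minus volatiles, was 4.83 for *GH3.3* (limma adjusted p = 0.0034), 2.60 for *WES1* (adjusted p = 0.034), -3.73 for *IAGLU* (adjusted p = 0.00023) and -0.93 for *HAT2* (adjusted p = 0.013) on the log2 scale. The difference of *HAT2* was under the 2-fold limit and so was not called. The call of *WES1* was lost in 10 of 21 alternatives, and the value of *GH3.3* ranged from 2.49 to 5.73 over them. *IAGLU* alone of the 4 was called in both experiments, in opposite directions, but its call at 48 h of volatiles was lost in 5 of 15 alternatives. No group held enough arrays for a search for single stray arrays.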

How the results depend on the processing

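The 4 calls with feeding held under all 15 alternatives. Among the changes of the 5 genes under an alternative, 502 kept their direction and side of the thresholds, 23 lost the call, 12 gained one and 23 turned sign, none of the last being called.

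Genes called up at 48 h of volatiles were 0 in a fit on own arrays and with the replicate block (*IAGLU* adjusted p = 0.36 and 0.061), and 0 to 1 without an array. For feeding minus volatiles, genes called up were 1 in both of these fits (*WES1* adjusted p = 0.064 and 0.063) and 1 to 2 without an array, and genes called down 2 with quantile normalization, median centring, a fold of 1.5 or no fold threshold, and 1 to 2 without an array. For 48 h controls minus healthy, genes called up were 0 on own arrays, 1 with the replicate block (*WES1* adjusted p = 0.063) and 1 to 2 without an array, and genes called down 2 with a fold of 1.5 or none; *IAA29* gained a call among the upper 60% by signal (adjusted p = 0.044). Same-numbered arrays of compared groups did not deviate together (r from -0.04 to 0.05), so the numbers do not pair them; at 48 h the block lowered the calls among all probe sets from 127 up and 47 down to 72 and 22.

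Other auxin genes called with feeding were 2 up and 1 down with log2(value + 16), the upper 60% or own arrays, and 2 to 3 up and 1 to 2 down without an array. Those called for feeding minus volatiles were 2 down with quantile normalization, median centring or no variance trend and 1 to 2 without an array. Those called between 48 h controls and healthy were 1 up and 1 down with log2(value + 16), the upper 60% or own arrays, and 1 to 3 down without an array. Among the upper 60%, 6 of the 23 were tested, so the dim genes could not be called there; the cause of the other changes was not tested.

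Signs that turned were those of uncalled differences: *HAT2* at 24 h (-0.19 with quantile normalization, -0.15 with median centring), *WES1* for 48 h minus 24 h response (0.23 and 0.18), *IAGLU* (-0.046 and -0.041) and *IAA29* (-0.083 and -0.077) between 48 h and 24 h controls, and *WES1* there with log2(value + 16) (0.027). Without an array the range was -0.90 to 0.12 for *GH3.3* and -0.51 to 0.27 for *WES1* at 24 h, -0.17 to 0.32 and -0.66 to 0.35 at 48 h, and -0.54 to 0.46 for *WES1* in the 48 h minus 24 h response. Between 48 h and 24 h controls it was -0.50 to 0.51 for *WES1*, -0.17 to 0.56 for *IAGLU*, -0.14 to 0.026 for *HAT2* and -0.090 to 0.42 for *IAA29*. Of the 4 probe sets most like a gene, 2 to 4 were shared with quantile normalization, 2 to 4 with median centring and 1 to 2 with Spearman's rho. Low signals, as for *GH3.3* in healthy leaves, have no background call here, so their folds are uncertain.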
